A study of Rattus norvegicus with 6 samples.

Results

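The comparison described here sets back skin from rats with a gefitinib-induced rash against back skin from untreated rats, 4 of the 6 libraries of the series, 2 in each group, chosen by their labels alone. The other 2 libraries, from afatinib-treated rats, enter the low-count filter, the scaling and the estimate of the spread between replicates, and are not themselves compared. All animals were Sprague-Dawley rats, an outbred albino laboratory strain. The gefitinib rats received gefitinib by mouth once a day at 80 mg/kg until a rash appeared, and the control rats were left untreated; the labels give no vehicle group and no day of sampling, so the drug, the dosing and the rash cannot be told apart. Back skin was frozen whole on dry ice and its RNA, extracted with Trizol, was sequenced from TruSeq libraries. Nothing in the labels states that the 2 libraries of a group came from separate animals, so the p-values below measure only the spread between these samples, which may be technical. The tissue label was borne out by its markers: the basal keratinocyte keratin Krt5 read 410.3 and 251 CPM, counts scaled to a common library size, in untreated skin, and the dermal collagen Col1a1 read 7898 and 3642 CPM.

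Gefitinib is a reversible inhibitor of the tyrosine kinase of the epidermal growth factor receptor, EGFR. In skin this receptor sits mainly on basal keratinocytes and on the outer root sheath of the hair follicle, where its ligands keep cells dividing, delay terminal differentiation and help the follicle to leave its growth phase. Follicles cycle between growth (anagen), regression (catagen) and rest (telogen); in anagen, matrix cells at the base of the follicle divide and fill with hair keratins under Wnt, Hedgehog, Notch and BMP signals that pass between epithelium and dermal papilla. A rash of papules and pustules is the best known skin effect of EGFR inhibitors in patients.

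The untreated libraries held 20166522 and 22086673 counts and the gefitinib libraries 19772043 and 20560892. Across genes, which are not independent replicates, log2 CPM correlated at r = 0.854 to 0.865 between untreated and gefitinib libraries. This was below the 0.963 and 0.968 within the gefitinib and untreated pairs. The 2 afatinib libraries, which enter the shared spread, correlated with each other at 0.925. The makeup of the libraries differed. Contractile genes of skeletal muscle, which lies under rodent skin, took 24.1% and 22.7% of the counts in untreated skin and 6.24% and 10.4% in rash skin. Cytosolic ribosomal protein genes took 3.23% and 2.64% against 6.90% and 7.01%, and transcripts of the mitochondrial genome 12.4% and 6.35% against 7.53% and 9.98%, with overlap between the groups. Counts were scaled with the trimmed mean of M-values (TMM), whose factors were 0.717 and 0.778 in untreated skin and 1.29 and 1.11 in rash skin. CPM below are scaled this way, and paired values stand in the order replicate 1, replicate 2. In whole skin, fewer cells of a type and less RNA per cell cannot be told apart.

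**Figure D1:**
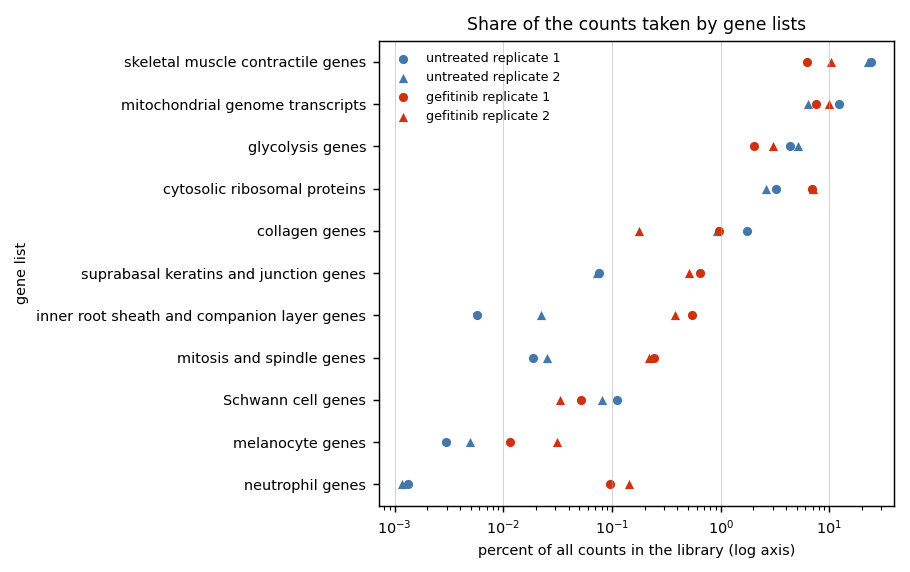
Percent of all counts in each library (log axis) taken by 11 gene lists, with untreated libraries in blue, gefitinib libraries in red, circles for replicate 1 and triangles for replicate 2. Skeletal muscle genes lie at 24.1% and 22.7% in untreated skin and at 6.24% and 10.4% in rash skin, whereas the inner root sheath and mitosis lists lie further right in both gefitinib libraries.

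Rash skin differed from untreated skin in 2906 of 16398 tested genes (17.7%) in edgeR's quasi-likelihood test at a Benjamini-Hochberg adjusted p under 0.05. Of these 2013 were higher (12.3% of all tested genes) and 893 lower (5.45%), and these 3 percentages are the background for every list count below. Changes upward were the larger ones: 617 higher and 68 lower genes differed by at least 3 on the log2 scale, and 175 and 12 by at least 5. The genes that rose had a median level of 4.9 CPM in untreated skin and 23.5 CPM in rash skin, and those that fell went from a median of 38.2 to 12.2 CPM. A set of 63 risen genes had no count in either untreated library, and 5 fallen genes had none in either gefitinib library. In every gene that passed, the 2 gefitinib values lay entirely above or entirely below the 2 untreated ones; among all tested genes 38.8% were higher and 33.9% lower in this sense, passed or not. The median log2 fold change of all tested genes was 0.04.

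The scaling bears on the fallen genes. With library size alone the median of all genes moved to 0.73 on the log2 scale, and all 2013 risen genes but only 183 of the 893 fallen ones passed, with no sign turned. Of the 44 gene lists that held a fallen gene, 21 held none under that scaling. Among these were the ERBB, ERK, IL-1, CXC, CC, cholesterol, sensory, clock, complement and hypoxia lists. The spread also rests on few libraries. Without gefitinib replicate 1 or 2 the test called 808 and 371 genes, without untreated replicate 1 it called 10, and without untreated replicate 2 it called 0, with 3903 genes at an unadjusted p under 0.05. Without muscle contractile and mitochondrial genes in the table the test called 2872 genes, 1876 higher and 996 lower. The lower share of muscle counts moves with the groups, and apart from that setting its part in the fallen genes was not tested. Most genes named below were picked by a rule on p, fold and list. The following were chosen after their values were seen: Acta1, Acta2, Ahrr, Aldh1a1, Aldh1a3, Axin2, Ccnb1, Cd3e, Cdc20, Cdkn1a, Col1a1, Col3a1, Csf1r, Csf3r, Cyp1a1, Dlx3, Dsg3, Dsg4, Dusp6, Hbegf, Hoxc13, Itgam, Klk7, Klk8, Krt1, Krt10, Krt14, Krt15, Krt17, Lrat, Msx2, Myh1, Pgam2, Plk1, Pmel, S100b, Sfrp1, Slc30a1, Sox10, Spry4, St14, Tyr, Tyrp1 and Vwf. The sources used here do not say whether counting used strand, so values of genes that overlap another locus are uncertain: Aox4, Birc5, Cers3, Cnfn, Col3a1, Cox6a1, Erbb2, Gli1, Grhl3, Has3, Igf2, Itgam, Jak1, Krt1, Krt14, Krt17, Krt5, Krt71, Krt75, Lama2, Mbp, Mt1, Myh1, Myh7, Nop58, Notch4, Pmel, Rpl3, S100a3, Sdr9c7, Sesn1, Slc30a1, Sox10, Sult2b1, Tek, Tgfb2, Timp4, Trpm1 and Tyr.

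**Figure D2:**
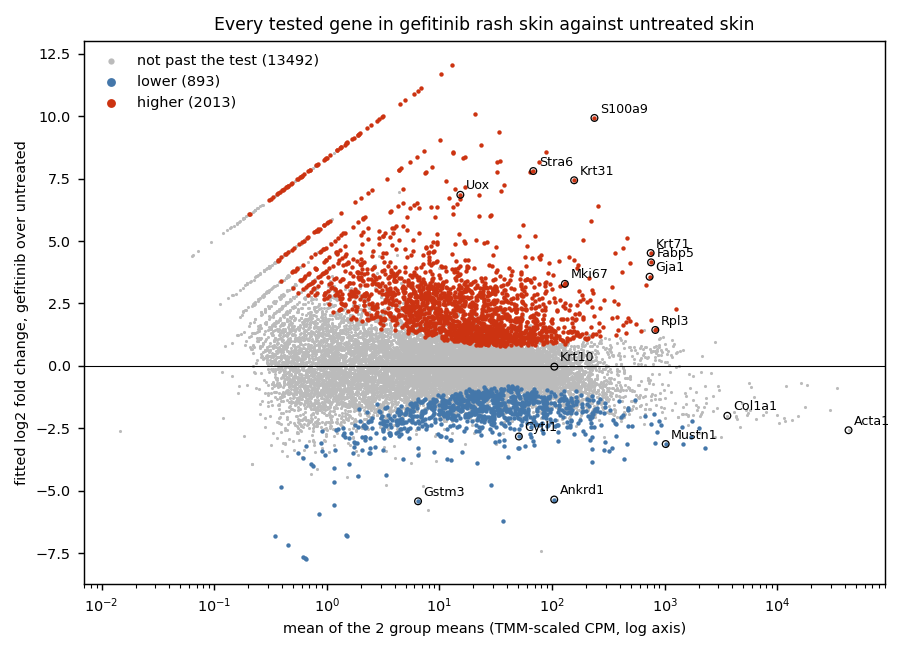
Fitted log2 fold change of gefitinib over untreated skin against the mean of the 2 group means (TMM-scaled CPM, log axis) for 16398 tested genes, with 2013 higher genes in red, 893 lower genes in blue and 13492 others in grey. The oblique streaks at the left are genes with no or few counts in untreated skin, whose fitted value depends on the prior count of the model; S100a9, Stra6 and Krt31 stand apart at higher levels.

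The hair shaft lists had the highest medians of all lists. Among hair keratin-associated proteins, the small proteins that cross-link the keratins of the hair shaft, 24 of 26 tested members rose and none fell (median log2 fold change 7.13); 3 of the 29 in the files were too low to be tested, and with genes at 0 set to their bound the median was 6.45. Krtap3-3 went from 0.346 and 0.0582 to 21.6 and 32.7 CPM, 137-fold higher (adjusted p = 0.00971). Krtap16-5 went from 0.138 and 0.0582 to 64.6 and 28.4 CPM, a count ratio of 501 (95% exact interval 171 to 2432). Krtap1-5 had 2 and 0 counts in untreated skin and 666 and 598 in rash skin, a count ratio of 414 (95% exact interval 114 to 3419). This family is made of near-identical copies, so how its reads were shared among members is uncertain.

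Hair keratins rose with them: 6 of 7 acidic (type I) and 6 of 6 basic (type II) members, with medians of 5.28 and 6.86. For the basic members limma-voom called 2 of 6. Krt31, a keratin of the shaft cortex, went from 1.798 and 1.804 to 435 and 190.2 CPM, 173-fold higher (adjusted p = 0.0116). Krt35, an early keratin of the matrix and cuticle, went from 11.8 and 39.2 to 1032 and 756 CPM (log2 fold change 5.13 ± 0.90 SE, adjusted p = 0.0155). Krt32, a cuticle keratin, went from 3.18 and 5.06 to 158 and 72.6 CPM, 27.9-fold higher (adjusted p = 0.015). Krt34 went from 0.484 and 0.116 to 27.4 and 32.8 CPM, 102-fold higher (adjusted p = 0.0105). Krt82, a basic keratin of the hair cuticle, went from 0.138 and 0.407 to 25.8 and 9.93 CPM, 62.3-fold higher (adjusted p = 0.0362). Gefitinib replicate 1 was the higher of its pair for Krt31, Krt32, Krt35, Krt82 and Krt85, and both gefitinib libraries lay above the untreated pair.

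The inner root sheath, which moulds the shaft as it grows, was represented by 10 of 10 risen members (median 4.23). Its keratin Krt71 went from 24.3 and 101 to 1427 and 1455 CPM, 23.0-fold higher (adjusted p = 0.0176). Krt27 went from 4.49 and 9.31 to 119 and 101 CPM, 15.9-fold higher (adjusted p = 0.0131). Padi3, the peptidylarginine deiminase that citrullinates trichohyalin, went from 3.04 and 9.54 to 141 and 113 CPM, 20.05-fold higher (adjusted p = 0.0126). The companion layer keratin Krt75 went from 7.19 and 19.0 to 354 and 181 CPM, 20.4-fold higher (adjusted p = 0.0134). In this list untreated replicate 2 was above replicate 1 for 9 of 10 members, yet the lower gefitinib library stood above it for every member.

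RefSeq promoter windows of 300 bases (250 before to 50 after the annotated start, GRCr8) were searched for short motifs on both strands; these coordinates are RefSeq's, since the sources used here name no build for the deposited tables. The TATA box TATAAA stood in 8 of 10 matched promoters of the inner root sheath list (80%), in 17 of 22 of the keratin-associated proteins (77.3%), in 6 of 7 of the type I hair keratins (85.7%) and in 1 of 3 of the type II hair keratins (33.3%), against 14.3% of all 27457 promoters. The stretches around it are shown for a shaft and a sheath keratin whose values are given here, with TATAAA in capitals, for Krt31 at chr10:85483304-85483349 and Krt71 at chr7:134761042-134761087, both on the minus strand.
Krt31: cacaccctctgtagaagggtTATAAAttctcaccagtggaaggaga
Krt71: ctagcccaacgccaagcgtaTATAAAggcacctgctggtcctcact
The box starts 29 bases before the annotated start of Krt31 and 34 before that of Krt71. A match is a run of letters in a window and not a measured binding site.

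Transcription factors that build the hair matrix rose in 16 of 23 cases (median 2.61), and none fell. Lef1, the nuclear partner of beta-catenin in matrix cells, went from 3.25 and 10.5 to 146 and 156 CPM, 21.8-fold higher (adjusted p = 0.0137). The transcription factor Ovol1 went from 10.5 and 12.6 to 116 and 120.4 CPM, 10.2-fold higher (adjusted p = 0.00971). Tfap2a, another such factor, went from 7.68 and 7.21 to 74.996 and 73.6 CPM, 9.98-fold higher (adjusted p = 0.0105). Hr, the hairless corepressor needed for follicle regeneration, went from 50.9 and 49.1 to 286 and 323 CPM, 6.09-fold higher (adjusted p = 0.0133). The paired libraries of rash skin were close to each other for these 4 genes, and each lay above both untreated libraries. Hoxc13, a direct regulator of hair keratin genes, went from 0.622 and 4.54 to 71.8 and 42.0 CPM, 21.6-fold higher (adjusted p = 0.032). The homeobox factors Dlx3 and Msx2 of the matrix rose 19.2-fold and 18.2-fold. Untreated replicate 2 stood above replicate 1 for these 3, and both rash libraries stood above it.

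Hedgehog signalling, which drives the proliferation of anagen follicles, had 5 risen and 1 fallen genes among 14 (none fell with library size only). The ligand Shh went from 1.31 and 4.65 to 25.7 and 35.7 CPM (log2 fold change 3.35 ± 0.59 SE, adjusted p = 0.0159). The transducer Smo went from 18.9 and 21.2 to 55.2 and 52.95 CPM, 2.69-fold higher (adjusted p = 0.0221). The effector Gli1, itself a pathway target, went from 6.5 and 12.6 to 42.7 and 87.7 CPM, 6.79-fold higher (adjusted p = 0.018). Ligand, transducer and target lay above both untreated libraries in both rash libraries. Gas1, a co-receptor, went the other way, from 24.1 and 21.7 to 9.997 and 3.81 CPM, 3.31-fold lower (adjusted p = 0.0422).

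Wnt genes had 19 risen and 3 fallen members (1 with library size only) among 43 (median 1.47). Epithelial ligands of the follicle rose: Wnt10a from 4.29 and 4.31 to 39.0 and 38.3 CPM, 8.99-fold higher (adjusted p = 0.0131). Wnt6 went from 4.56 and 6.28 to 35.0 and 42.1 CPM, 7.09-fold higher (adjusted p = 0.012). Feedback inhibitors that the pathway itself induces rose too, with Nkd2 going from 12.6 and 14.1 to 71.7 and 117 CPM, 7.05-fold higher (adjusted p = 0.0105). The secreted inhibitor Wif1 went from 2.84 and 3.55 to 22.7 and 32.7 CPM, 8.65-fold higher (adjusted p = 0.0116). Axin2, a widely used Wnt target, went from 12.2 and 10.6 to 48.3 and 46.9 CPM, 4.17-fold higher (adjusted p = 0.0214). The 3 fallen members were the secreted antagonists Sfrp5 and Frzb and the ligand Wnt16. Sfrp5 went from 21.9 and 17.9 to 3.29 and 3.59 CPM, 5.76-fold lower (adjusted p = 0.0108). Frzb went from 6.15 and 7.45 to 1.96 and 1.09 CPM, 4.43-fold lower (adjusted p = 0.0301). The ligand Wnt16 went from 7.47 and 2.33 to 0.666 and 0.350 CPM, 9.46-fold lower (adjusted p = 0.0316). Another member of the antagonist family, Sfrp1, rose from 17.7 and 15.01 to 80.7 and 49.7 CPM, 3.99-fold higher (adjusted p = 0.0191).

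Genes of the dermal papilla and of follicle stem cells were split, with 8 risen and 3 fallen (1 with library size only) of 31. The papilla genes Rspo1 and Rspo2, which encode amplifiers of Wnt signalling, both rose. Rspo1 went from 1.59 and 1.63 to 8.98 and 7.26 CPM, 5.03-fold higher (adjusted p = 0.019). Rspo2 went from 0.138 and 0.465 to 4.08 and 2.98 CPM, 11.2-fold higher (adjusted p = 0.0219). Crabp1, a retinoic acid binding protein of the papilla, went from 15.3 and 13.1 to 125 and 83.5 CPM, 7.35-fold higher (adjusted p = 0.00971). The fallen members were Nfatc1, Lrig1 and Prom1. Nfatc1, which holds bulge stem cells in quiescence, went from 35.0 and 57.2 to 15.96 and 13.3 CPM, 3.16-fold lower (adjusted p = 0.0215). Lrig1, an EGFR-restraining marker of upper follicle stem cells, went from 31.3 and 43.9 to 16.1 and 16.7 CPM, 2.29-fold lower (adjusted p = 0.0328). Prom1 went from 28.1 and 16.1 to 4.23 and 4.29 CPM, 5.17-fold lower (adjusted p = 0.0185). The bulge keratin Krt15 stood at 283 and 144 CPM in untreated skin and 276 and 274 CPM in rash skin and its groups overlapped.

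Of the Notch and ectodysplasin genes 3 rose and 3 fell (none with library size only) among 16. The receptor Notch1, which commits keratinocytes to differentiate, went from 57.2 and 63.5 to 361 and 342 CPM, 5.82-fold higher (adjusted p = 0.0269). Its ligand Jag1 went from 33.3 and 31.5 to 195 and 209 CPM, 6.25-fold higher (adjusted p = 0.015). The ectodysplasin receptor Edar went from 1.11 and 2.15 to 7.37 and 12.2 CPM, 5.95-fold higher (adjusted p = 0.0225). The fallen members were Notch4, Hey1 and Eda2r. The vascular receptor Notch4 went from 51.1 and 41.1 to 22.5 and 14.7 CPM, 2.48-fold lower (adjusted p = 0.0489). The target Hey1 went from 3.67 and 3.43 to 1.25 and 0.700 CPM, 3.604-fold lower (adjusted p = 0.0444). The receptor Eda2r went from 4.29 and 14.5 to 1.18 and 1.36 CPM, 7.42-fold lower (adjusted p = 0.0259). In the BMP and TGF-beta list 5 rose and 4 fell (none with library size only) of 30. The ligand Bmp7 went from 5.81 and 5.82 to 47.3 and 35.6 CPM, 7.13-fold higher (adjusted p = 0.015), and the BMP targets Id1, Id2 and Id4 rose 2.99-fold, 4.04-fold and 2.45-fold. On the TGF-beta side the ligand Tgfb2 fell from 56.0 and 53.7 to 20.4 and 18.4 CPM, 2.83-fold lower (adjusted p = 0.0191). The receptor Tgfbr2 went from 82.2 and 88.6 to 34.2 and 14.3 CPM, 3.52-fold lower (adjusted p = 0.0299).

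**Figure D3:**
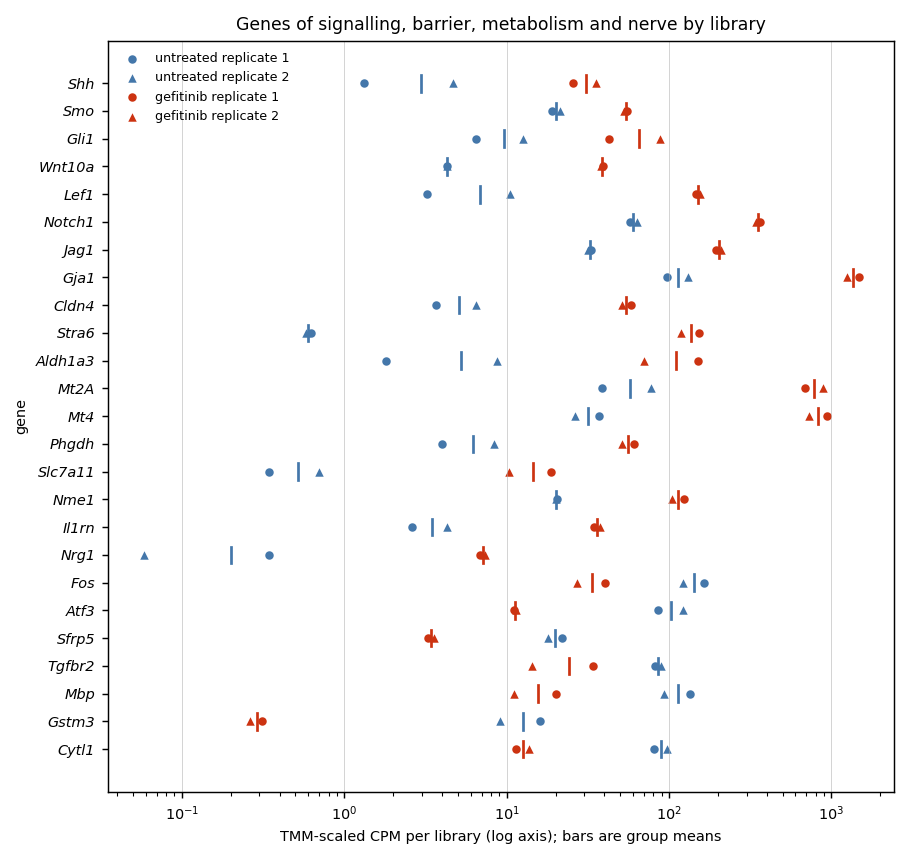
TMM-scaled CPM (log axis) of 25 genes in the 2 untreated (blue) and 2 gefitinib (red) libraries, with circles for replicate 1, triangles for replicate 2 and bars for group means. From Shh to Nrg1 both gefitinib libraries lie to the right of both untreated ones, and from Fos to Cytl1 to the left; Shh reads 1.31 and 4.65 against 25.7 and 35.7 CPM.

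In the epidermis, of 14 basal keratinocyte genes 4 rose and 2 fell (1 with library size only). Krt5, the basal keratin, went from 410.3 and 251 to 1134 and 1222 CPM, 3.56-fold higher (adjusted p = 0.0386). Tp63, the p63 gene that maintains the epithelium, went from 64.2 and 61.3 to 226 and 251 CPM, 3.81-fold higher (adjusted p = 0.0162). The laminin gene Lamb3 went from 18.7 and 11.1 to 38.2 and 48.1 CPM, 2.901-fold higher (adjusted p = 0.0465). The fallen pair encode linkers of hemidesmosomes that muscle and nerve also express: Dst from 384 and 447 to 104.91 and 124 CPM, 3.63-fold lower (adjusted p = 0.0155). Plec went from 454 and 683 to 216 and 215 CPM, 2.64-fold lower (adjusted p = 0.0356). The partner keratins of the basal and suprabasal layers did not pass. Krt14 read 357 and 149 CPM in untreated skin and 442 and 364 CPM in rash skin. Krt1 read 129.8 and 57.3 CPM in untreated skin and 81.1 and 100 CPM in rash skin, and Krt10 135 and 76.5 CPM in untreated skin and 89.6 and 118 CPM in rash skin, and the groups overlapped for both.

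In the list of suprabasal keratins and junctions 22 of 30 rose and none fell (median 2.51). Among them were gap junction genes, which encode connexins. Gja1 went from 97.0 and 131 to 1470.5 and 1243 CPM, 11.9-fold higher (adjusted p = 0.0123). Gjb6 went from 1.59 and 1.164 to 22.3 and 20.2 CPM, 15.4-fold higher (adjusted p = 0.00631). The tight junction gene Cldn4 went from 3.67 and 6.46 to 58.3 and 51.1 CPM, 10.7-fold higher (adjusted p = 0.00971). Perp, a desmosome gene and p53 target, went from 113 and 90.1 to 595 and 627 CPM, 6.02-fold higher (adjusted p = 0.0126). The desmosomal cadherins Dsg1, Dsg3, Dsg4, Dsc1, Dsc2 and Dsc3, which hold keratinocytes together, rose, from 5.49-fold for Dsg3 to 29.96-fold for Dsg4.

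Cornified envelope genes rose too. Of 11 tested envelope genes 8 rose: Cnfn, encoding cornifelin, went from 0.207 and 0.0582 to 11.5 and 12.0 CPM, 87.9-fold higher (adjusted p = 0.00628). Calml3, a calmodulin-like protein of differentiating epithelia, went from 15.1 and 14.7 to 209.7 and 166 CPM, 12.6-fold higher (adjusted p = 0.0106). Lypd3 went from 8.02 and 13.3 to 126 and 105.47 CPM, 10.9-fold higher (adjusted p = 0.00971). Lce1m, a late cornified envelope gene, fell, with 27 and 13 counts in untreated skin and 0 in rash skin, at least 10.5-fold lower. Of 34 enzymes and regulators 23 rose and 2 fell (1 with library size only). Tgm1, the transglutaminase that cross-links the envelope, went from 1.45 and 2.15 to 37.8 and 30.5 CPM, 18.8-fold higher (adjusted p = 0.00608). Grhl3, a barrier regulator, went from 1.59 and 1.63 to 23.8 and 24.3 CPM, 14.9-fold higher (adjusted p = 0.00832). The cholesterol sulfotransferase Sult2b1 went from 1.04 and 1.86 to 27.2 and 26.3 CPM, 18.2-fold higher (adjusted p = 0.00628). Sts, whose steroid sulfatase undoes the work of Sult2b1, fell from 36.3 and 40.4 to 10.04 and 13.2 CPM, 3.30-fold lower (adjusted p = 0.0185). The deiminases split, with Padi4 going from 0.761 and 1.22 to 29.6 and 34.3 CPM, 31.8-fold higher (adjusted p = 0.00971). Padi2, also a muscle and nerve enzyme, went from 57.9 and 191 to 13.4 and 14.7 CPM, 8.86-fold lower (adjusted p = 0.0331).

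Proteases that shed cornified cells and their inhibitors rose side by side. Of the kallikreins that cut the links between cornified cells, Klk7 went from 0.830 and 0.989 to 12.8 and 10.3 CPM, 12.6-fold higher (adjusted p = 0.00971). Klk8 went from 1.24 and 0.989 to 10.2 and 9.80 CPM, 8.95-fold higher (adjusted p = 0.0117). The activating protease St14 (matriptase) went from 10.2 and 17.6 to 141 and 109 CPM, 8.99-fold higher (adjusted p = 0.0176). The matriptase inhibitors rose as well. Spint1 went from 6.92 and 8.49 to 109 and 88.1 CPM, 12.8-fold higher (adjusted p = 0.0105). Spint2 went from 30.5 and 32.1 to 188 and 178 CPM, 5.84-fold higher (adjusted p = 0.0105). Serpinb5 (maspin) went from 21.5 and 27.0 to 225 and 237 CPM, 9.52-fold higher (adjusted p = 0.00962). The cysteine protease inhibitor Csta went from 0.277 and 0.349 to 39.5 and 17.4 CPM, 88.7-fold higher (adjusted p = 0.00628). Of the 25 tested inhibitors 13 rose and 1, Wfdc21, was at least 10.2-fold lower.

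Barrier lipid genes gave fewer calls, with 8 risen and 1 fallen of 38 and a median of 0.64; limma-voom called 5. The 4 risen genes with the smallest p act on omega-acylceramides, the lipids that seal the cornified layer. Cers3, the very long chain ceramide synthase, went from 2.21 and 1.45 to 16.2 and 10.4 CPM, 7.25-fold higher (adjusted p = 0.019). Cyp4f39, the fatty acid omega-hydroxylase, went from 1.94 and 1.69 to 10.2 and 9.32 CPM, 5.38-fold higher (adjusted p = 0.0136). Nipal4 went from 2.35 and 1.57 to 17.8 and 16.1 CPM, 8.67-fold higher (adjusted p = 0.0111). Sdr9c7, which processes linoleate in these ceramides, went from 0.0692 and 0.233 to 9.02 and 5.82 CPM, 45.8-fold higher (adjusted p = 0.00971). Fa2h, the fatty acid 2-hydroxylase of epidermis, sebocytes and myelin, fell from 6.71 and 4.89 to 0.627 and 0.481 CPM, 10.3-fold lower (adjusted p = 0.0126).

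Of 21 tested alarm genes of stressed epidermis 16 rose, with a median of 4.49, or 3.19 with genes at 0 set to their bound. The calprotectin genes rose in both libraries. S100a8 went from 6.36 and 5.70 to 375 and 646 CPM, 84.6-fold higher (adjusted p = 0.00608). S100a9 went from 0.692 and 0.291 to 333 and 619 CPM (log2 fold change 9.93 ± 0.69 SE, adjusted p = 0.00608). The cystatin-like stefin genes belong to a rodent family of near-identical copies. Stfa3 went from 0.277 and 0.756 to 135 and 169 CPM, 284-fold higher (adjusted p = 0.00628). Stfa2l1 went from 0.207 and 0.0582 to 27.9 and 17.3 CPM, 169.6-fold higher (adjusted p = 0.00608). Sprr1a, an envelope precursor induced by wounding, went from 1.38 and 0.815 to 24.4 and 24.8 CPM, 22.4-fold higher (adjusted p = 0.00608), and its relative Sprr1b had 0 counts in both untreated libraries and 566 and 429 in rash skin, at least 107-fold higher. The wound keratin Krt17 went from 43.2 and 92.9 to 701 and 525 CPM, 9.01-fold higher (adjusted p = 0.0136); anagen follicles express it as well.

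These promoters are shown because the genes had almost no transcript in untreated skin, with TATAAA and, for Sprr1b, the AP-1 motif TGANTCA in capitals. S100a9 lies at chr2:178490639-178490684 and Sprr1b at chr2:180706365-180706491 (GRCr8, minus strand).
S100a9: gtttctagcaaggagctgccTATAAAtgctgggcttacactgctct
Sprr1b: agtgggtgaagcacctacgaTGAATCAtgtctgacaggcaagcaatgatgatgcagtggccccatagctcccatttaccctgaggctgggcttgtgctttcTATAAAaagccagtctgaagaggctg
TGANTCA, searched on both strands, stood in 95 of 1375 matched promoters of risen genes (6.91%), in 5.19% of fallen genes, in 5.1% of genes tested and not called, and in 7.33% of all promoters. In the alarm gene list it stood in 3 of 14 (21.4%).

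A subset of epidermal cytokines rose. In the IL-1 and IL-36 list 7 of 20 rose and 1 fell. Il1b went from 0.899 and 0.640 to 7.41 and 15.9 CPM, 15.1-fold higher (adjusted p = 0.0128). Il36g went from 0.277 and 0.349 to 5.17 and 4.77 CPM, 15.5-fold higher (adjusted p = 0.0105). The natural antagonists rose with them, Il1rn from 2.63 and 4.31 to 34.5 and 37.8 CPM, 10.4-fold higher (adjusted p = 0.0126). Il36rn went from 1.66 and 0.931 to 7.06 and 6.87 CPM, 5.39-fold higher (adjusted p = 0.019). The decoy receptor Il1r2 fell from 45.5 and 28.7 to 15.8 and 13.9 CPM, 2.50-fold lower (adjusted p = 0.0294). Among other cytokines and receptors 7 rose and 4 fell (1 with library size only) of 28. Tnf, Il17a, Ifng and Il4 were among those too low to be tested. Il24, an IL-20 family cytokine, went from 0.830 and 0.291 to 7.88 and 6.56 CPM, 13.005-fold higher (adjusted p = 0.0142). Csf3, the neutrophil growth factor, went from 0.277 and 0.0582 to 3.33 and 3.11 CPM, 19.3-fold higher (adjusted p = 0.0142). Il17b went from 0.622 and 1.05 to 7.45 and 4.46 CPM, 7.04-fold higher (adjusted p = 0.0164). Il15, Il16 and the death ligand Tnfsf10 fell 3.93-fold, 4.16-fold and 4.72-fold. Neither Il15 nor Il16 passed with library size only.

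Of 17 CXC genes 2 rose, a share close to the 12.3% of all genes: the neutrophil attractants Cxcl1 and Cxcl2. Cxcl1 went from 0.0692 and 0.291 to 3.96 and 3.02 CPM, 18.2-fold higher (adjusted p = 0.0172). Cxcl2 went from 0 and 0.0582 to 2.55 and 19.4 CPM, a count ratio of 332 (95% exact interval 59.4 to 13157). Cxcl2 was far higher in gefitinib replicate 2 than in replicate 1. Of 20 CC genes 5 rose, including Ccl17 and Ccl7. Ccl17, a T cell attractant, went from 0.0692 and 0.233 to 5.02 and 6.21 CPM, 34.7-fold higher (adjusted p = 0.0126). Ccl7 went from 1.18 and 1.57 to 15.3 and 3.81 CPM, 6.91-fold higher (adjusted p = 0.0343). Ccl6 fell from 40.5 and 30.3 to 12.3 and 10.8 CPM, 3.06-fold lower (adjusted p = 0.0203). None of 20 genes of the NF-kB pathway passed in edgeR, with 1 at an unadjusted p under 0.05, 1 called by DESeq2 and 0 by limma-voom. The smallest p belonged to Tnip1, which binds the NF-kB inhibitor A20, at 73.4 and 73.3 CPM in untreated skin and 46.3 and 43.6 CPM in rash skin (adjusted p = 0.0677).

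Of 33 interferon response genes 1 rose and 1 fell. Ifit1 went from 0 and 0.0582 to 1.57 and 1.05 CPM, a count ratio of 41.9 (95% exact interval 7.25 to 1679.9). Ifit2, of the same family, went from 33.3 and 15.4 to 8.35 and 6.04 CPM, 3.38-fold lower (adjusted p = 0.0364). The MHC class II genes Cd74, RT1-Da and RT1-Db1, which serve antigen presentation, fell. Cd74, the invariant chain, went from 406 and 212 to 113 and 65.5 CPM, 3.47-fold lower (adjusted p = 0.0393), and the other 9 of 12 members did not pass. With library size only no member of either list fell. In the JAK-STAT list 4 of 19 fell (none with library size only), including Jak1, Stat5b and Cish. The kinase Jak1 went from 123 and 147 to 64.7 and 52.2 CPM, 2.31-fold lower (adjusted p = 0.0251). Stat5b went from 97.9 and 186 to 38.7 and 34.1 CPM, 3.89-fold lower (adjusted p = 0.0324). Its target Cish went from 62.4 and 108 to 29.3 and 19.8 CPM, 3.47-fold lower (adjusted p = 0.0429). The phosphatase Ptpn2 went from 17.2 and 18.0 to 34.1 and 39.4 CPM, 2.09-fold higher (adjusted p = 0.0305). The share of skeletal muscle counts given above moved the same way, and its part in these values was not tested.

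In the list of EGFR and related ERBB ligands 5 of 10 rose and none fell; limma-voom called 3. Epgn (epigen) went from 1.94 and 2.33 to 17.8 and 9.63 CPM, 6.40-fold higher (adjusted p = 0.0142). Areg (amphiregulin) went from 0.138 and 0.291 to 5.53 and 2.23 CPM, 17.3-fold higher (adjusted p = 0.0155). Tgfa went from 3.32 and 2.73 to 11.1 and 8.18 CPM, 3.19-fold higher (adjusted p = 0.0386). The ERBB3 and ERBB4 ligand gene Nrg1 went from 0.346 and 0.0582 to 6.90 and 7.31 CPM, 35.6-fold higher (adjusted p = 0.0131). All were low even in rash skin, at most 17.8 CPM. Hbegf, another ligand, read 14.1 and 67.4 CPM in untreated skin and 10.7 and 8.62 CPM in rash skin, with untreated replicate 2 apart from the other 3 libraries.

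Egfr itself read 12.6 and 10.5 CPM in untreated skin and 31.9 and 21.1 CPM in rash skin (log2 fold change 1.20 ± 0.70 SE, adjusted p = 0.247). Erbb2, its preferred partner, read 3.73 and 6.17 CPM in untreated skin and 14.2 and 13.6 CPM in rash skin (log2 fold change 1.48 ± 0.65 SE, adjusted p = 0.144). Neither passed with all 6 libraries in the fit, and both gefitinib libraries were above both untreated ones. With only the 4 gefitinib and untreated libraries in the fit both passed, Egfr at an adjusted p of 0.0217 and Erbb2 at 0.0201. Erbb3, the kinase-impaired partner, went from 17.6 and 10.9 to 47.5 and 50.9 CPM, 3.45-fold higher (adjusted p = 0.0316). Erbb4 was too low to be tested. Of the proteins that restrain the receptor Lrig3 rose from 15.6 and 14.02 to 46.7 and 48.8 CPM, 3.22-fold higher (adjusted p = 0.0279). Cblc, a ubiquitin ligase, went from 4.91 and 4.48 to 12.8 and 12.3 CPM, 2.67-fold higher (adjusted p = 0.0247). Errfi1 (MIG6), an inhibitor that EGFR signalling induces, fell from 116 and 123 to 67.0 and 57.1 CPM, 1.92-fold lower (adjusted p = 0.0434), alongside Lrig1. With library size only neither of these genes passed, at log2 fold changes of −0.254 for Errfi1 and −0.524 for Lrig1. Their fall therefore depends on the scaling. Rhbdf2, which brings the ligand-shedding protease ADAM17 to the surface, went from 16.04 and 19.3 to 36.9 and 49.0 CPM, 2.43-fold higher (adjusted p = 0.0441).

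Transcripts that ERK signalling induces, the pathway below EGFR, gave no common direction. In the ERK feedback list 3 of 22 rose, a share near the 12.3% of all genes. The phosphatase Dusp2 went from 0.830 and 0.756 to 5.96 and 6.26 CPM, 7.66-fold higher (adjusted p = 0.0126). The receptor Epha2 went from 27.0 and 27.8 to 102 and 82.4 CPM, 3.36-fold higher (adjusted p = 0.0163). Etv4 went from 10.5 and 23.6 to 76.6 and 49.0 CPM, 3.68-fold higher (adjusted p = 0.0355). Sh2b3 fell from 48.5 and 44.5 to 23.3 and 17.6 CPM, 2.27-fold lower (adjusted p = 0.0253). The direct feedback genes Dusp6 and Spry4 did not pass. Dusp6, an ERK phosphatase, read 16.04 and 19.1 CPM in untreated skin and 32.7 and 22.1 CPM in rash skin, and Spry4 13.3 and 12.9 CPM in untreated skin and 14.3 and 7.53 CPM in rash skin.

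Of 24 immediate early genes, which answer within minutes to growth factors and stress, 8 fell and 2 rose, beside 5.45% and 12.3% of all genes. Fos went from 163 and 122 to 40.1 and 27.3 CPM, 4.23-fold lower (adjusted p = 0.0139). Atf3 went from 85.3 and 121 to 11.1 and 11.4 CPM, 9.17-fold lower (adjusted p = 0.0155). The antiproliferative gene Btg2 went from 124 and 149 to 35.7 and 36.3 CPM, 3.80-fold lower (adjusted p = 0.0126). Klf6 went from 25.1 and 28.2 to 9.997 and 6.65 CPM, 3.196-fold lower (adjusted p = 0.0172). The risen members were Myc and Egr3. Myc went from 21.2 and 24.5 to 52.8 and 53.6 CPM, 2.33-fold higher (adjusted p = 0.0188). Egr3 went from 3.46 and 6.81 to 47.0 and 42.0 CPM, 8.62-fold higher (adjusted p = 0.0252). With library size only 4 of the list fell.

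Genes of cell division rose almost throughout. Of 46 mitosis and spindle genes 43 rose and none fell (median 2.82), and of 46 DNA replication genes 40 rose and none fell (median 2.06). The mitotic kinase Cdk1 went from 6.98 and 9.48 to 65.5 and 68.6 CPM (log2 fold change 3.02 ± 0.29 SE, adjusted p = 0.00824). Its partner Cks2 went from 6.22 and 5.47 to 36.6 and 49.3 CPM, 7.34-fold higher (adjusted p = 0.0092). The chromosomal passenger Birc5 (survivin) went from 4.01 and 4.36 to 25.9 and 28.5 CPM, 6.49-fold higher (adjusted p = 0.00986). For replication, thymidine kinase Tk1 went from 12.9 and 13.3 to 64.7 and 62.1 CPM, 4.84-fold higher (adjusted p = 0.00971). The primase Prim1 went from 11.8 and 9.89 to 51.7 and 57.0 CPM, 5.03-fold higher (adjusted p = 0.0105). The helicase subunit Mcm3 went from 4.49 and 8.20 to 53.4 and 53.5 CPM, 8.39-fold higher (adjusted p = 0.012). The gefitinib libraries differed little from each other for these genes; the mitosis list took 0.241% and 0.218% of their counts against 0.0189% and 0.0251% in untreated skin.

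Promoters of mitotic genes often share a pair of motifs, the CCAAT box bound by NF-Y and the element TTTGAA, known as the cell cycle genes homology region. CCAAT stood in 28 of 38 matched promoters of the mitosis list (73.7%, against 37.7% of all promoters) and TTTGAA in 29 of 38 (76.3%, against 18.1%). TTTGAA was not particular to this list: it stood in 6 of 7 type I (85.7%) and 2 of 3 type II hair keratin promoters (66.7%). It stood in 10 of 22 keratin-associated protein promoters (45.5%) and in 1 of 10 inner root sheath promoters (10%). In the replication list CCAAT stood in 24 of 36 (66.7%), close to the mitosis list. TTTGAA stood there in 2 of 36 (5.56%), whereas GCGGGAA, the core of an E2F site, stood in 14 of 36 (38.9%, against 5.26% of the mitosis list and 4.47% of all promoters). All 3 were searched on both strands. Stretches of 4 risen mitotic genes are shown with CCAAT (or ATTGG on the other strand) and TTTGAA in capitals: Cdk1 at chr20:19265063-19265292 and Plk1 at chr1:186147600-186147644 on the plus strand, Ccnb1 at chr2:33655251-33655327 and Cdc20 at chr5:137255816-137255905 on the minus strand (GRCr8).
Cdk1: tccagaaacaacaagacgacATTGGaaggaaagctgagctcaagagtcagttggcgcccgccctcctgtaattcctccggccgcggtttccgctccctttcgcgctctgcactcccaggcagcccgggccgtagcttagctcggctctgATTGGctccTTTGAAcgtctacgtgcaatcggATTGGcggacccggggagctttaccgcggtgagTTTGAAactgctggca
Plk1: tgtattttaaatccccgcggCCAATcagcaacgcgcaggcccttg
Ccnb1: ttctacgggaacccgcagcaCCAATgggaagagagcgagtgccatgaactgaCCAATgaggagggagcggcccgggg
Cdc20: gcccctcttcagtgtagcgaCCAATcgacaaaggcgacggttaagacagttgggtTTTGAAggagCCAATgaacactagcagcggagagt
Cdk1 and Cdc20 hold both motifs and Plk1 and Ccnb1 hold CCAAT alone in the bases before the start. Plk1 went from 3.87 and 4.31 to 39.8 and 38.0 CPM, 9.49-fold higher (adjusted p = 0.0105). Ccnb1 (cyclin B1) went from 3.32 and 6.98 to 47.1 and 45.6 CPM, 8.94-fold higher (adjusted p = 0.0126). Cdc20 went from 7.47 and 11.9 to 66.6 and 62.3 CPM, 6.63-fold higher (adjusted p = 0.0106).

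Regulators of the G1 phase went both ways. The MYC family members Mycl and Mycn rose. Mycl went from 7.47 and 12.0 to 108 and 112 CPM, 11.2-fold higher (adjusted p = 0.0136). Mycn went from 2.63 and 8.96 to 76.0 and 88.6 CPM, 14.1-fold higher (adjusted p = 0.0172). Cyclin D1 (Ccnd1) went from 26.1 and 39.0 to 162 and 109 CPM, 4.16-fold higher (adjusted p = 0.0175). Cdk2 went from 12.9 and 11.6 to 31.9 and 41.3 CPM, 2.98-fold higher (adjusted p = 0.0155). The fallen members were Btg2 (above) and a pair linked to quiescence, Rbl2 and Ccng2. Rbl2, encoding the RB relative p130, went from 94.9 and 98.7 to 37.0 and 53.6 CPM, 2.14-fold lower (adjusted p = 0.0364). Cyclin G2 (Ccng2) went from 94.2 and 82.0 to 31.7 and 44.5 CPM, 2.31-fold lower (adjusted p = 0.0435). In all 11 rose and 3 fell (1 with library size only) of 21. Among p53 targets 3 rose and 3 fell (none with library size only) of 19. The death effector Bax went from 31.3 and 30.1 to 64.8 and 61.5 CPM, 2.06-fold higher (adjusted p = 0.0243). The stress genes Sesn1 and Gadd45b fell 3.04-fold and 1.93-fold. Cdkn1a, the p53-induced cell cycle inhibitor, read 78.8 and 79.7 CPM in untreated skin and 117 and 159.6 CPM in rash skin (adjusted p = 0.0866).

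Several biosynthetic lists rose in part. In the amino acid stress and serine synthesis list 10 of 24 rose and 1 fell. Phgdh, the entry enzyme of serine synthesis, went from 4.01 and 8.32 to 60.8 and 51.6 CPM, 9.07-fold higher (adjusted p = 0.0116). Psat1, the next enzyme, went from 6.5 and 5.59 to 50.9 and 31.2 CPM, 6.79-fold higher (adjusted p = 0.0136). The mitochondrial folate enzyme Mthfd2 went from 2.35 and 2.44 to 24.5 and 17.6 CPM, 8.77-fold higher (adjusted p = 0.00971). The cystine importer Slc7a11 went from 0.346 and 0.698 to 18.9 and 10.4 CPM, 27.3-fold higher (adjusted p = 0.0116). The glutathione-degrading stress gene Chac1 fell from 174 and 196 to 17.9 and 53.5 CPM, 5.18-fold lower (adjusted p = 0.0357). Of 20 polyamine and nucleotide genes 8 rose. The nucleoside diphosphate kinase Nme1 went from 20.5 and 20.02 to 123 and 104 CPM, 5.60-fold higher (adjusted p = 0.00971). The polyamine acetylase Sat1 went from 82.1 and 79.4 to 475 and 526 CPM, 6.198-fold higher (adjusted p = 0.015). Of 20 ribosome biogenesis genes 8 rose, including those of the nucleolar proteins Nop58 and Npm1. Nop58 went from 29.6 and 31.5 to 108 and 119 CPM, 3.71-fold higher (adjusted p = 0.0132). Npm1 went from 278 and 254 to 733 and 948 CPM, 3.16-fold higher (adjusted p = 0.0253). Of 80 ribosomal proteins 2 passed, beside 12.3% of all genes, namely Rpl22l1 and Rpl3, the latter from 483 and 407.17 to 1234 and 1182 CPM, 2.71-fold higher (adjusted p = 0.0491). With library size only 46 of them rose.

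Lipid synthesis genes rose in part. Of 30 cholesterol genes 10 rose, including Sqle and Dhcr7. Sqle, the squalene epoxidase, went from 7.40 and 9.60 to 57.1 and 47.7 CPM, 6.15-fold higher (adjusted p = 0.00971). Dhcr7 went from 9.47 and 7.33 to 41.2 and 39.5 CPM, 4.80-fold higher (adjusted p = 0.0105). The oxysterol receptor Nr1h3 (LXR alpha) fell from 27.0 and 30.3 to 11.6 and 14.5 CPM, 2.20-fold lower (adjusted p = 0.0328). In the fatty acid list 8 rose and 3 fell (2 with library size only) of 32. Fabp5, the epidermal fatty acid binding protein, went from 41.4 and 121 to 1650.3 and 1219 CPM, 17.7-fold higher (adjusted p = 0.0128). Acly, which supplies acetyl-CoA, went from 50.7 and 50.6 to 193 and 182 CPM, 3.71-fold higher (adjusted p = 0.015), while Plin5 and Acsl1, genes of fat-burning tissue such as muscle, fell 5.27-fold and 3.79-fold.

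Retinoid handling rose in 8 of 22 cases and fell in none (median 1.95). Stra6, the membrane importer of retinol, had the largest change of the list, from 0.622 and 0.582 to 153 and 118 CPM (log2 fold change 7.80 ± 0.95 SE, adjusted p = 0.0103). The cellular binding proteins Rbp2 and Crabp1 rose as well. Rbp2 went from 0.553 and 0.524 to 15.7 and 18.6 CPM, 31.5-fold higher (adjusted p = 0.00608). The storage enzyme Lrat went from 4.43 and 5.82 to 61.4 and 29.9 CPM, 8.89-fold higher (adjusted p = 0.015). Aldh1a3, which makes retinoic acid, went from 1.80 and 8.73 to 151 and 70.02 CPM, 20.8-fold higher (adjusted p = 0.0273). Another retinaldehyde dehydrogenase, Aldh1a1, stood lower, at 189 and 233 CPM in untreated skin and 27.1 and 75.4 CPM in rash skin, and did not pass (adjusted p = 0.0501).

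Metallothioneins are small proteins that bind zinc and copper. Their list of 7 genes also holds the regulator Mtf1 and the exporter Slc30a1. Of these 7 genes 5 rose (median 2.97). Mt4, the isoform of stratified epithelia, went from 36.9 and 26.5 to 934 and 723 CPM (log2 fold change 4.71 ± 0.58 SE, adjusted p = 0.0105). Mt2A went from 38.4 and 77.2 to 684 and 882 CPM, 13.5-fold higher (adjusted p = 0.0136). The zinc exporter Slc30a1 went from 14.2 and 16.2 to 111 and 73.3 CPM, 6.08-fold higher (adjusted p = 0.0413). The row named Mt1 went from 5.12 and 7.16 to 49.6 and 46.6 CPM, 7.82-fold higher (adjusted p = 0.00971), but the files place it on chromosome 17 and RefSeq places Mt1 on chromosome 19, so which copy it counts is uncertain. The core of the metal response element, TGCACNC or TGCGCNC on either strand, stood in 5 of 5 matched promoters of this list. This core stood in 25% of all promoters and in 35.7% of those of genes tested and not called. It is shown in capitals, with TATAAA, before the starts of Mt2A at chr19:10838714-10838948 and Mt4 at chr19:10871843-10871949 (GRCr8, minus strand).
Mt2A: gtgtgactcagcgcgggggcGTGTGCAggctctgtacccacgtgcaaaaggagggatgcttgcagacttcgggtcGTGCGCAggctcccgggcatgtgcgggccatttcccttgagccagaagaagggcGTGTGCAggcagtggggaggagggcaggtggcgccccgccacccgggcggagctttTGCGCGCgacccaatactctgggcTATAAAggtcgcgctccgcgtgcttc
Mt4: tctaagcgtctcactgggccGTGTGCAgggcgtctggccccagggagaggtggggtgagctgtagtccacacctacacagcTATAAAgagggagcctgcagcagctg
The Mt2A stretch holds 4 copies and the Mt4 stretch 1, and Mt4 had the larger fold in these libraries, 26.1-fold against 13.5-fold.

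Of 25 oxidative stress genes 4 rose and 3 fell (1 with library size only). Genes of glutathione synthesis and use were among the risen. Gclc went from 17.6 and 21.99 to 104 and 88.2 CPM, 4.85-fold higher (adjusted p = 0.0116). Gpx2 went from 1.31 and 1.22 to 21.4 and 18.2 CPM, 15.6-fold higher (adjusted p = 0.0131). Gstm3, a glutathione transferase, fell from 16.1 and 9.13 to 0.314 and 0.263 CPM, 42.8-fold lower (adjusted p = 0.0317). Catalase (Cat) fell from 188 and 255 to 64.8 and 73.0 CPM, 3.22-fold lower (adjusted p = 0.015). None of 15 drug metabolism genes rose and 4 fell (1 with library size only), including Sult1a1 and Ephx1. The sulfotransferase Sult1a1 went from 157 and 99.4 to 27.8 and 22.3 CPM, 5.12-fold lower (adjusted p = 0.0173). The epoxide hydrolase Ephx1 went from 41.2 and 37.7 to 11.4 and 13.7 CPM, 3.15-fold lower (adjusted p = 0.0155). Cyp1a1, the main target of the aryl hydrocarbon receptor, read 315 and 0.582 CPM in untreated skin and 0.274 and 1.58 CPM in rash skin. Untreated replicate 1 stood apart from the other 3 libraries. Ahrr, which the same receptor induces, read 9.89 and 1.05 CPM in untreated skin and 0.431 and 1.62 CPM in rash skin.

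Of 22 transport genes 4 rose and 2 fell (1 with library size only). The water and glycerol channel Aqp3 rose from 16.1 and 9.66 to 78.3 and 91.6 CPM, 6.597-fold higher (adjusted p = 0.0107). The calcium channel Trpv6 went from 3.11 and 1.75 to 8.94 and 10.98 CPM, 4.11-fold higher (adjusted p = 0.0394). The sodium channel subunit Scnn1a went from 1.45 and 0.873 to 6.74 and 6.08 CPM, 5.52-fold higher (adjusted p = 0.0316). The vessel channel Aqp1 fell from 709 and 526 to 152 and 91.2 CPM, 5.07-fold lower (adjusted p = 0.0155).

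Other genes met the rule for the steepest changes or the smallest p without being on a list. Tm4sf4, a tetraspanin-like membrane protein, had 0 and 1 counts in untreated skin and 498 and 474 in rash skin. Uox, urate oxidase, went from 0.484 and 0.0582 to 29.9 and 30.9 CPM, 116-fold higher (adjusted p = 0.00628). The aldehyde oxidase Aox4 went from 0.207 and 0.233 to 19.2 and 29.1 CPM, 106-fold higher (adjusted p = 0.00608). Bpifc, of a family of lipid-binding proteins, went from 1.80 and 2.33 to 28.0 and 38.7 CPM, 16.1-fold higher (adjusted p = 0.00672). Downward, the secreted protein Cytl1 went from 80.4 and 97.6 to 11.4 and 13.7 CPM, 7.09-fold lower (adjusted p = 0.00672). The deubiquitinase Otud1 went from 46.3 and 103 to 5.49 and 6.48 CPM, 12.4-fold lower (adjusted p = 0.00971). The guanylyl cyclase Gucy2g went from 17.8 and 25.7 to 1.22 and 2.06 CPM, 13.3-fold lower (adjusted p = 0.0105). The growth factor Igf2 went from 138 and 82.8 to 22.03 and 18.8 CPM, 5.40-fold lower (adjusted p = 0.0126). The transcriptional coactivator Cited2 went from 142 and 159.8 to 24.3 and 31.9 CPM, 5.36-fold lower (adjusted p = 0.0126). Cyp4b1, a monooxygenase, went from 35.9 and 30.3 to 8.94 and 8.97 CPM, 3.69-fold lower (adjusted p = 0.0105). With library size only Cyp4b1 did not pass (edgeR adjusted p = 0.0622).

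Deposited FPKM are fragments scaled to gene length and to a size factor for each library in place of its depth. By the naming rule the 10 largest gains in FPKM included keratins and small proteins of epithelia. Mt4 went from 96.9 and 70.1 to 2372 and 1876 FPKM, S100a3, a calcium-binding protein of the hair cuticle, from 35.9 and 29.3 to 995 and 466 FPKM, and Fabp5 from 57.7 and 169 to 2226 and 1681 FPKM. Lgals7, galectin-7 of stratified epithelia, went from 182 and 218 to 1553 and 2144 FPKM, and Krt71 from 11.7 and 49.0 to 665 and 693 FPKM. Ppia, cyclophilin A, often used as a housekeeping reference, went from 257 and 253 to 891 and 1002 FPKM.

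Muscle transcripts were lower in both rash libraries. In the contractile list 7 of 28 fell in edgeR, with 14 at an unadjusted p under 0.05, while DESeq2 called 28; the list's median was −2.19. The slow-fibre genes Tnnt1, Tnni1 and Myh7 fell. Tnnt1, a troponin, went from 422 and 397 to 28.6 and 53.6 CPM, 9.97-fold lower (adjusted p = 0.00986). Myh7 went from 367 and 1269 to 41.3 and 81.3 CPM, 13.3-fold lower (adjusted p = 0.0173). Abundant genes of fast fibres and of all fibres did not pass: Acta1 read 78631 and 68684 CPM in untreated skin and 8207 and 16526 CPM in rash skin (log2 fold change −2.57 ± 1.25 SE, adjusted p = 0.177). Myh1, a fast myosin, read 40471 and 50529.6 CPM in untreated skin and 7921 and 18847 CPM in rash skin. In the list of muscle stress and atrophy 11 of 25 fell (6 with library size only). Ankrd1, a stretch sensor of the sarcomere, went from 154 and 254 to 2.59 and 7.44 CPM (log2 fold change −5.35 ± 1.05 SE, adjusted p = 0.0197). The myogenic factors Myod1 and Myog fell too. Myod1 went from 53.4 and 84.4 to 17.5 and 10.98 CPM, 4.84-fold lower (adjusted p = 0.0233). Myog went from 49.998 and 55.7 to 12.0 and 16.7 CPM, 3.68-fold lower (adjusted p = 0.0257). Sln, sarcolipin, an inhibitor of the muscle calcium pump, rose against this direction from 114 and 59.5 to 235 and 218 CPM, 2.61-fold higher (adjusted p = 0.0434).

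Energy metabolism gave few calls in edgeR. Of 42 nuclear genes of the respiratory chain none fell and 1, Cox6a1, the form of non-muscle tissue, rose from 112 and 100.1 to 258 and 229.9 CPM, 2.31-fold higher (adjusted p = 0.0289). The median of the list was −0.95, and 24 of its genes passed when only these 4 libraries entered the fit. In the glycolysis list the median was −1.26 and both gefitinib values lay below both untreated ones in 19 of 27 genes. None of these passed in edgeR, with 14 of the 27 at an unadjusted p under 0.05, 17 called by DESeq2 and 16 with only 4 libraries in the fit. The non-muscle isoform Pgam1 rose from 73.1 and 64.6 to 237 and 222 CPM, 3.34-fold higher (adjusted p = 0.0193). The glucose transporter Slc2a1 went from 24.3 and 19.7 to 63.5 and 52.9 CPM, 2.65-fold higher (adjusted p = 0.0367). Pgam2, the muscle isoform, stood at 4016 and 2554 CPM in untreated skin and 669.6 and 974 CPM in rash skin and did not pass (adjusted p = 0.12). No transcript of the mitochondrial genome passed in edgeR, with 0 at an unadjusted p under 0.05 and 0 called by DESeq2 or limma-voom. In the heat shock list 6 of 19 fell (3 with library size only). Cryab, a small heat shock protein abundant in muscle, went from 1541 and 1561 to 242 and 353 CPM, 5.21-fold lower (adjusted p = 0.0352). Hspb1 went from 1191 and 1756 to 335 and 309 CPM, 4.58-fold lower (adjusted p = 0.0333).

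Myelin genes fell in both gefitinib libraries. Of 23 Schwann cell genes 13 fell (8 with library size only), against 5.45% of all genes, and the median was −2.13. Mbp, myelin basic protein, went from 135 and 92.5 to 20.1 and 11.2 CPM, 7.28-fold lower (adjusted p = 0.0106). Prx (periaxin) went from 54.6 and 41.5 to 12.7 and 9.15 CPM, 4.39-fold lower (adjusted p = 0.0106). Its partner Drp2 went from 21.0 and 14.95 to 2.71 and 2.49 CPM, 6.90-fold lower (adjusted p = 0.0105). Pou3f1 (Oct6) and Erbb3, which keratinocytes also express, rose. Pou3f1 went from 12.5 and 11.3 to 81.7 and 73.4 CPM, 6.5-fold higher (adjusted p = 0.0105). The lineage factor Sox10 did not pass, at 8.71 and 6.81 CPM in untreated skin and 2.20 and 4.68 CPM in rash skin. Nor did the general Schwann cell marker S100b, at 29.3 and 23.3 CPM in untreated skin and 13.1 and 10.9 CPM in rash skin. Without gefitinib replicate 1 or 2 the list's median was −2.44 and −1.895.

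Among genes of sensory nerve and its peptides 3 of 21 rose, a share near the 12.3% of all genes. Calca, encoding calcitonin and the nerve peptide CGRP, had no count in untreated skin and 52 and 85 counts in rash skin, at least 15.1-fold higher. The heat and osmotic channel Trpv4 went from 3.32 and 3.90 to 14.8 and 10.6 CPM, 3.52-fold higher (adjusted p = 0.0284). The substance P receptor Tacr1 fell from 1.52 and 0.873 to 0.157 and 0.0875 CPM, 9.26-fold lower (adjusted p = 0.0493).

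Dermal genes differed between the 2 rash libraries. Gefitinib replicate 2 held far less collagen transcript than replicate 1: Col1a1 read 7898 and 3642 CPM in untreated skin and 2516 and 377 CPM in rash skin, and Col3a1 10887 and 4880.5 CPM in untreated skin and 2467 and 398 CPM in rash skin. Neither passed. The collagen list took 0.969% and 0.176% of the counts in the gefitinib libraries and 1.75% and 0.925% in the untreated ones. Of its 36 members 7 fell (none with library size only) and none rose, with a median of −1.33, or −2.32 and −0.884 without gefitinib replicate 1 and without replicate 2. Those that fell included the basement membrane chains Col4a4 and Col4a5. Col4a4 went from 104 and 69.995 to 30.3 and 20.5 CPM, 3.43-fold lower (adjusted p = 0.0206). The collagen hydroxylase P4ha2 went from 56.9 and 40.1 to 19.8 and 14.4 CPM, 2.83-fold lower (adjusted p = 0.0395).

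Matrix glycoproteins included both directions, 4 risen and 4 fallen (1 with library size only) of 38, beside 12.3% and 5.45% of all genes. Tnc (tenascin-C), a matrix protein of wounds and growing follicles, went from 9.47 and 14.02 to 102 and 48.5 CPM, 6.39-fold higher (adjusted p = 0.0256). Vcan (versican), of the dermal papilla, went from 29.6 and 23.7 to 149 and 83.9 CPM, 4.37-fold higher (adjusted p = 0.0249). The hyaluronan synthase Has3, an epidermal enzyme, went from 2.97 and 10.5 to 65.3 and 40.9 CPM, 7.82-fold higher (adjusted p = 0.0372). The basement membrane genes Lama2, of muscle and nerve, and Nid2 fell. Lama2 went from 211 and 143 to 43.9 and 23.2 CPM, 5.28-fold lower (adjusted p = 0.029). Nid2 went from 67.6 and 32.9 to 14.7 and 4.68 CPM, 5.16-fold lower (adjusted p = 0.0407). Tnc and Vcan were the higher in gefitinib replicate 1, but both gefitinib libraries exceeded both untreated ones.

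Vessel genes differed between the rash libraries in the same direction. Of 23 endothelial genes 6 fell (none with library size only), including Tek, Flt1 and Cdh5. The angiopoietin receptor Tek went from 75.2 and 73.5 to 24.7 and 10.3 CPM, 4.24-fold lower (adjusted p = 0.019). Flt1 went from 102 and 61.4 to 28.5 and 15.01 CPM, 3.76-fold lower (adjusted p = 0.0212). Cdh5, the junction cadherin, went from 178 and 133 to 50.7 and 19.8 CPM, 4.41-fold lower (adjusted p = 0.0286). The list's median of −1.04 became −2.03 and −0.675 without gefitinib replicate 1 and without replicate 2. Vwf, a clotting factor made by endothelium, was low in gefitinib replicate 2 alone, at 45.4 and 57.2 CPM in untreated skin and 61.2 and 10.5 CPM in rash skin. Of 14 mural cell genes 5 fell (1 with library size only), including Rgs5. This pericyte gene went from 113 and 64.2 to 28.0 and 10.8 CPM, 4.56-fold lower (adjusted p = 0.0293), whereas Acta2 read 86.2 and 107 CPM in untreated skin and 149.6 and 22.5 CPM in rash skin.

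The pigment synthesis genes Tyr, Tyrp1 and Pmel were high in gefitinib replicate 2 only. Tyr read 1.24 and 3.2 CPM in untreated skin and 0.196 and 30.1 CPM in rash skin. Tyrp1 read 3.25 and 6.23 CPM in untreated skin and 0.745 and 50.9 CPM in rash skin. Pmel read 2.97 and 9.13 CPM in untreated skin and 3.72 and 77.6 CPM in rash skin, and none of the 3 passed. Of 10 melanocyte genes only Trpm1 and Kit rose in both libraries and passed. Trpm1 went from 2.01 and 5.82 to 29.6 and 35.5 CPM, 8.26-fold higher (adjusted p = 0.0168). Kit, which mast cells share, went from 8.02 and 9.08 to 40.7 and 56.7 CPM, 5.69-fold higher (adjusted p = 0.0105). The list's median of 2.65 became 3.44 and −1.27 without gefitinib replicate 1 and without replicate 2.

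**Figure D4:**
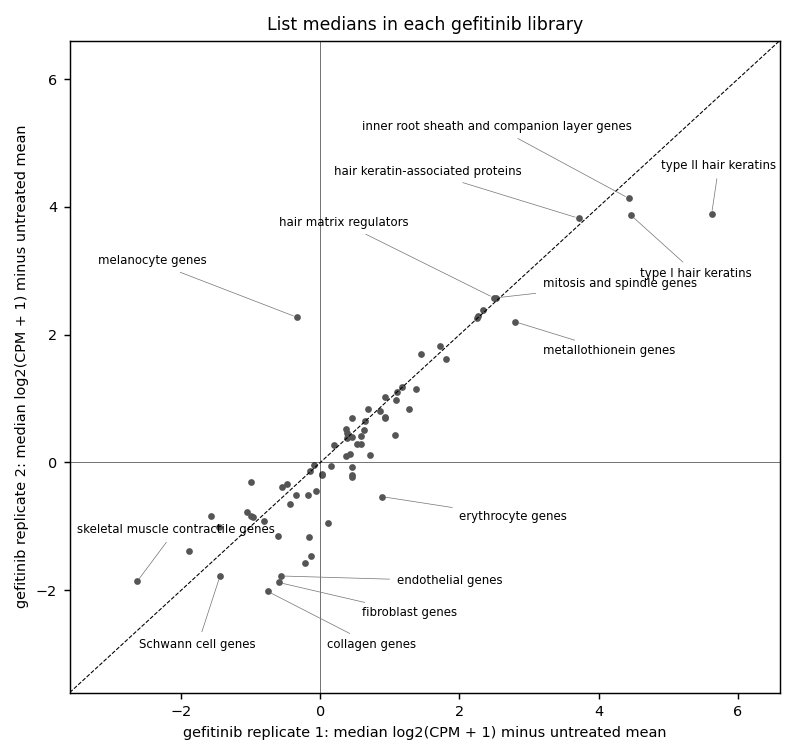
For each gene list with at least 5 tested members, the median over its genes of log2(CPM + 1) in gefitinib replicate 1 (horizontal) and replicate 2 (vertical) minus the untreated mean; the dashed line marks equal values. Collagen, endothelial, fibroblast and erythrocyte lists lie below the line and the melanocyte list above it, at −0.337 and 2.27.

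Of 9 tested neutrophil genes 5 rose, but 2 of these are S100a8 and S100a9, which stressed keratinocytes also express. Csf3r, the G-CSF receptor, went from 0.484 and 0.698 to 4.82 and 3.89 CPM, 7.26-fold higher (adjusted p = 0.0181). The neutrophil collagenase Mmp8 went from 0.138 and 0 to 2.74 and 3.94 CPM, a count ratio of 52.4 (95% exact interval 14.3 to 436). The granule genes Elane, Ngp and Ltf were too low to be tested, and Itgam, shared with macrophages, stood at 5.46 and 3.32 CPM in untreated skin and 2.86 and 1.58 CPM in rash skin. Of 22 macrophage genes 3 rose, near the 12.3% of all genes, including Arg1 and Gpnmb. Arg1 went from 1.24 and 1.57 to 9.21 and 8.80 CPM, 6.36-fold higher (adjusted p = 0.0132). Gpnmb went from 24.4 and 45.2 to 431 and 357 CPM, 11.3-fold higher (adjusted p = 0.0179). Other cells of skin also express both. The macrophage receptor Csf1r read 49.4 and 28.8 CPM in untreated skin and 21.4 and 11.4 CPM in rash skin and did not pass. Of 20 T and NK cell genes 3 rose, also near the 12.3% of all genes, including Zap70 and Gata3. Zap70, a kinase of the T cell receptor, had a count ratio of 15.5 (95% exact interval 5.09 to 76.9). Gata3, also a hair sheath factor, went from 12.6 and 9.31 to 62.0 and 71.2 CPM, 6.08-fold higher (adjusted p = 0.0166). Cd3e, a chain of the T cell receptor complex, read 1.52 and 0.524 CPM in untreated skin and 0.823 and 0.0438 CPM in rash skin and did not pass. None of the 3 tested B cell genes passed in edgeR, with 0 at an unadjusted p under 0.05 and 0 called by DESeq2.

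Of 25 matrix proteases and their inhibitors 5 rose and 3 fell (1 with library size only), and the median was 0.02. Among the risen were Mmp13, Mmp12 and Mmp9, which read near 0 in untreated skin. Mmp13 (collagenase 3) went from 0.138 and 0.175 to 7.17 and 13.3 CPM, 62.5-fold higher (adjusted p = 0.00811). Mmp12 (macrophage elastase) went from 0.207 and 0.116 to 5.41 and 9.93 CPM, 46.5-fold higher (adjusted p = 0.0092). Mmp9 (gelatinase B) went from 0 and 0.116 to 6.94 and 12.0 CPM, a count ratio of 148 (95% exact interval 40.7 to 1225). The plasminogen activators Plau and Plat and the inhibitor Timp4 fell. Plau, urokinase, went from 60.4 and 38.4 to 12.5 and 10.02 CPM, 4.38-fold lower (adjusted p = 0.0131). Plat went from 51.2 and 45.6 to 27.4 and 22.2 CPM, 1.95-fold lower (adjusted p = 0.0489). Timp4 went from 28.4 and 29.96 to 16.1 and 12.7 CPM, 2.03-fold lower (adjusted p = 0.0373). Of 27 eicosanoid genes 3 rose, a share near the 12.3% of all genes. Ptgs2 (COX-2) went from 0.830 and 0.349 to 4.74 and 4.95 CPM, 8.27-fold higher (adjusted p = 0.0147). The receptor Ptger3 went from 0.899 and 0.465 to 5.84 and 5.21 CPM, 8.12-fold higher (adjusted p = 0.0232). The lipoxygenase Alox12 rose 3.93-fold. The complement and coagulation list had 3 risen genes of 22, near the 12.3% of all genes, and 2 fallen (none with library size only). Complement C3 rose from 0.484 and 0.698 to 12.2 and 6.43 CPM, 15.5-fold higher (adjusted p = 0.0113). The fallen genes were the inhibitors Clu and Cd59, 2.49-fold and 2.37-fold lower.

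Across the lists with at least 10 tested members, the share of risen members ran from none to all. It was highest for the inner root sheath, mitosis, keratin-associated protein and DNA replication lists, beside 12.3% of all genes, and the share of fallen members was highest for Schwann cell genes, muscle stress genes and smooth muscle and pericyte genes, beside 5.45%. With library size only it was highest for contractile genes of skeletal muscle (10 of 28), ahead of Schwann cell genes (8 of 23) and muscle stress genes (6 of 25). In the clock list the median was −1.05 and both gefitinib values lay below both untreated ones in 16 of 18 genes, beside 33.9% of all tested genes. Only Bhlhe41 passed in edgeR, with 12 at an unadjusted p under 0.05, 11 called by DESeq2, 0 by limma-voom and 12 with only 4 libraries in the fit. This repressor of clock genes went from 11.1 and 23.7 to 3.45 and 5.60 CPM, 3.85-fold lower (adjusted p = 0.0438). In the glucocorticoid list 5 of 16 fell (2 with library size only), among them Hsd11b1. This gene, whose enzyme regenerates active glucocorticoid, went from 24.8 and 20.9 to 9.21 and 7.92 CPM, 2.66-fold lower (adjusted p = 0.028). Of 14 hypoxia genes the regulator Epas1 fell from 242 and 240.2 to 104 and 80 CPM, 2.62-fold lower (adjusted p = 0.0221). Car12 rose from 9.96 and 3.67 to 39.9 and 46.3 CPM, 6.35-fold higher (adjusted p = 0.0349).

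**Figure D5:**
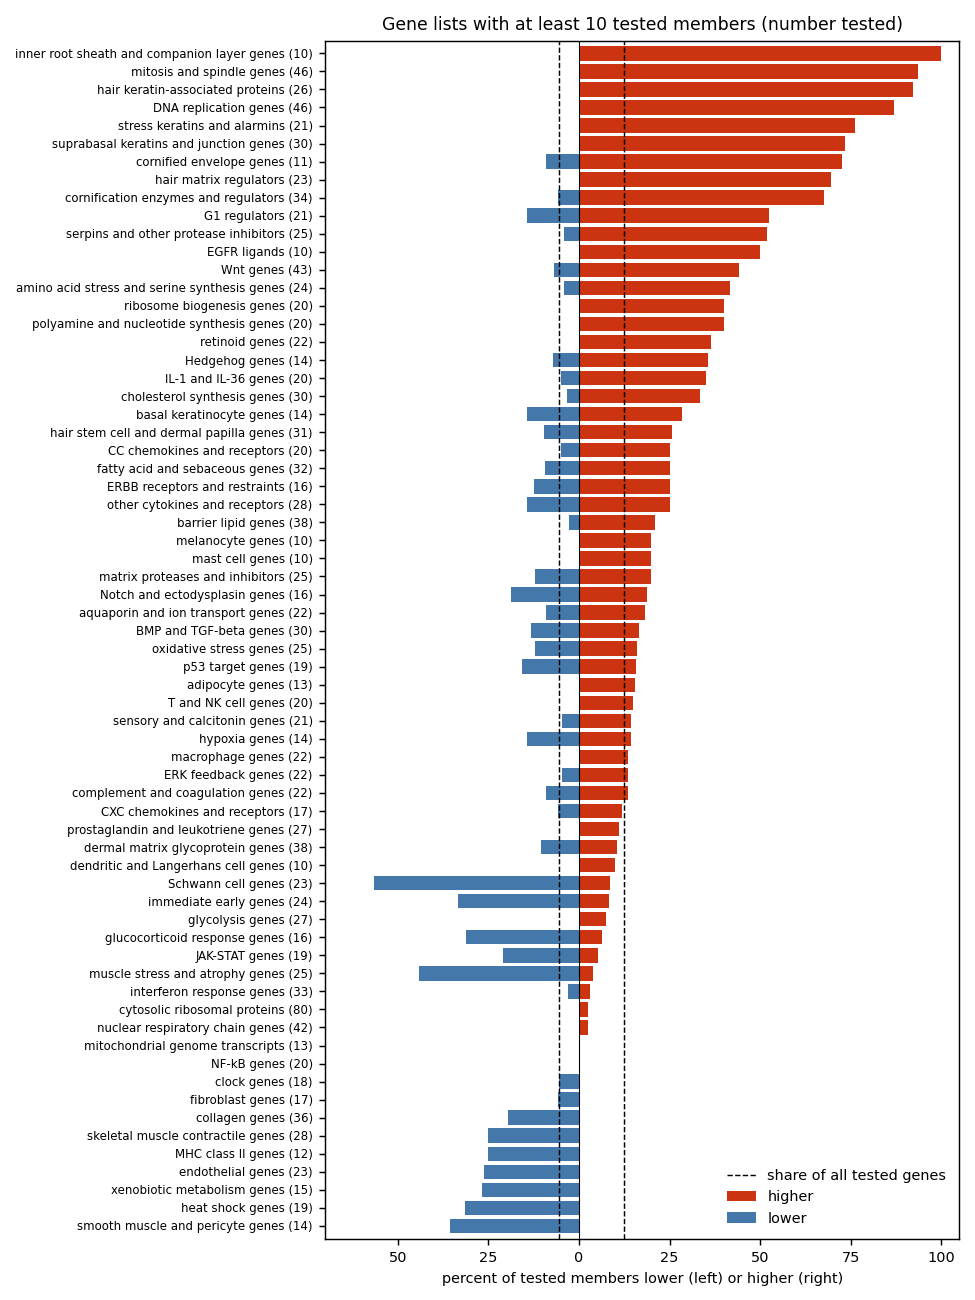
Percent of tested members that passed the test, higher to the right in red and lower to the left in blue, for each gene list with at least 10 tested members (number tested in parentheses). Dashed lines mark the shares of all tested genes, 12.3% higher and 5.45% lower; all 10 inner root sheath genes are higher, and 13 of 23 Schwann cell genes are lower.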

How the data were processed

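Whole back skin of untreated and gefitinib-treated rats was profiled by RNA sequencing, 2 libraries a group. The authors deposited whole-number gene counts and FPKM for 34225 loci, per the file headers. The submitters' processing notes list DESeq2 1.16.1, HISAT2 2.0.5 and featureCounts 1.5.0-p3. The sources used here give no role for each tool, no genome build, no annotation and no strand setting. The deposited FPKM were scaled to gene length and to a size factor for each library in place of its depth. They are used for levels and for the FPKM choice among the named genes, and were not tested.

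Counts were tested with edgeR 4.0.16 (R 4.3.3), quasi-likelihood, 1 term for each of 3 groups over all 6 libraries, TMM scaling, the default low-count filter (16398 loci kept, 99.9% of counts) and Benjamini-Hochberg adjustment. The SE is the log2 fold change divided by the root of F. A fold against a group at 0 is a lower bound against 3 counts per library, and with 1 to 3 counts it is a count ratio with a 95% exact interval; both cover counting error only. Alternatives were DESeq2 1.42.0, limma 3.58.1 (voom), other scalings, filters and sample sets, and a fit with a replicate block.

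Named genes (335 by rule) are, per direction, the 15 steepest and the 10 with the smallest p among those reaching 20 CPM, the 10 with the largest FPKM difference, the 4 with the smallest p in each of 74 gene lists (the 2 smallest where none passed), and the ERBB receptors. Some of them are not reported here. The comparison, lists and rule were chosen with earlier results of these data known. Promoters come from RefSeq (GRCr8), matched by identifier or symbol and chromosome, 1375 of 2013 risen and 597 of 893 fallen genes.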

Additional observations from a re-analysis of the deposited data

How the results depend on the processing

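Against 2906 calls (2013 higher, 893 lower), DESeq2 called 4682, of which 2610 were higher and 2072 lower. Without the low-count filter 4550 passed (2616 higher, 1934 lower), and with only the 4 gefitinib and untreated libraries 5286 (3072 higher, 2214 lower). With library size only, 3071 were higher and 191 lower. The share of calls that were higher was 69.3%, and it became 55.7% with DESeq2, 57.5% without the filter, 58.1% with 4 libraries and 94.1% with library size only. None of the 335 genes named by rule turned sign under any alternative run; genes named outside the rule were not counted here. Leaving out 1 library gave 0 to 5320 calls, 0 to 2978 higher and 0 to 2550 lower. Without afatinib replicate 1 the test called 5159 genes (57.7% higher), without afatinib replicate 2 5320 (52.1%), without gefitinib replicate 1 808, without gefitinib replicate 2 371 (93.3%), without untreated replicate 1 10 and without untreated replicate 2 0. In the last fit 3903 genes had an unadjusted p under 0.05, and the group with a lone library is assumed to vary like the others. Of the 335 named genes, 73 lost their call with library size only, 22 with limma-voom, 171 and 215 without gefitinib replicate 1 or 2, and 317 and 323 without untreated replicate 1 or 2.

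With a replicate block 2298 genes passed (1602 higher, 696 lower) and 49 named genes lost their call. The numbers do not pair the samples: deviations of same-numbered libraries correlated at 0.033 between untreated and gefitinib skin, 0.037 between untreated and afatinib and −0.174 between gefitinib and afatinib. With 2 libraries a group, a missed threshold does not show that levels were alike.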
